A study of Drosophila melanogaster with 4 samples.

Results

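Tubulins and actins are the building blocks of the cytoskeleton. Of 9 listed genes (6 tubulin and 3 actin genes), 5 had at least 1 probe set of their own on the array, of 10844 genes named in all. The members were found by gene name in the platform annotation with updated symbols, and control probe sets were not counted as members. The 5 genes, all tubulins, were betaTub97EF, betaTub60D, betaTub56D, alphaTub84D and alphaTub85E, with 7 probe sets between them. The platform annotation listed no probe set for alphaTub84B or for the actin genes Act5C, Act42A and Act57B, so these 4 are not among the results, which concern tubulins.

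Kc167 is a female Drosophila melanogaster line of embryonic origin, grown in serum-free CCM3 medium. The 4 conditions were control (no hormone, mock-treated), ecdysone (10 µM muristerone A, an ecdysone analog, then mock treatment), irradiated (no hormone, 280 Gy of gamma rays) and combined (hormone, then 280 Gy). All cultures were kept for 72 h and rested for a further 90 min after the mock or gamma treatment. Each condition had 1 sample of this 1 line on 1 Affymetrix DrosGenome1 array, so no value has a replicate.

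Microtubules are polymers of alpha and beta tubulin, which pair into heterodimers before assembly. In Drosophila, separate genes encode the isoforms. Some of these isoforms are made in nearly all cells and others in particular tissues. Ecdysone and its analogs make Kc cells stop dividing and change from round to elongated cells, and beta tubulin isoforms are known hormone targets in Drosophila cells. No sequences of the genes or probes were used here.

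The signal is the authors' MAS5 intensity per probe set. Between 48.8% and 51.0% of the probe sets of an array lay above 119.4 signal units, the median of all signals, which served as a floor. All 7 member probe sets lay above it on all 4 arrays, with a lowest signal of 212.1. The control transcripts with probe sets at both ends gave log2 ratios of 3′ over 5′ signal from -0.47 (combined) to 0.93 (irradiated) for actin, from -0.34 (combined) to 0.58 (irradiated) for eIF-4a and from 0.52 (control) to 1.81 (combined) for GAPDH. Per the file headers each array was washed in a module of its own (control 3, ecdysone 4, irradiated 1, combined 2), so condition and wash module cannot be told apart for either treatment. Hybridisation strength differs between probes, so the signals of different probe sets are not set against each other.

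The suffix of an Affymetrix probe set tells how specific it is. Only those of betaTub97EF and betaTub56D are standard, which leaves 5 of another class. For betaTub60D and alphaTub84D 1 probe set each is incomplete (i), with fewer unique probes than usual, and 1 was designed with relaxed rules (r). That of alphaTub85E is a family probe set (f), whose probes can match related transcripts. The alphaTub84B and alphaTub84D proteins are nearly identical, and how much alphaTub84B RNA the alphaTub84D or alphaTub85E probe sets register was not tested.

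With ecdysone, betaTub97EF rose 3.75-fold, while the other 4 tubulin genes did not pass the test. The signal of betaTub97EF gained 2.27 log2 units over that of betaTub56D in unirradiated cells and 2.31 in irradiated cells, a contrast that has no test here. betaTub56D had the largest standard error of the members (0.73 log2 units), so the nearness of these values does not measure precision. Both probe sets of alphaTub84D read lower with the hormone in both pairs, by 0.35 to 0.83 log2 units, without passing the test. After irradiation no tubulin passed.

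Each treatment was measured in 2 pairs of arrays that share no array. For ecdysone these were ecdysone against control and combined against irradiated, and for irradiation they were irradiated against control and combined against ecdysone. The test was an additive model of both treatments, fitted with limma to the 5981 probe sets above the floor on average, with Benjamini-Hochberg adjustment over all of them and a threshold of 0.05. Its standard errors (SE) draw on 1 residual degree of freedom per probe set and on the spread of probe sets of similar intensity, so they do not measure the spread between cultures. Differences of a probe set between arrays are log2 differences of scaled signals.

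Of the 7 member probe sets, 1 rose with ecdysone and 0 fell, against 1.44% of all tested probe sets called higher, 0.552% called lower and 1.99% in all. With at least a 2-fold difference in the same direction in both pairs as a rule of size, the same probe set was called, against 3.95% of all 13966 probe sets. The members were chosen with earlier results of these data known, betaTub97EF among them, so these counts are no fair comparison with those shares. The median ecdysone difference of the 7 was 0.07, beside -0.03 over all probe sets tested. Their median absolute difference was 0.38, beside 0.60 over all tested. The spread of probe sets varies with intensity, and these medians were not matched for it. Whether tubulins changed less than probe sets of similar intensity was not tested.

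**Figure D1:**
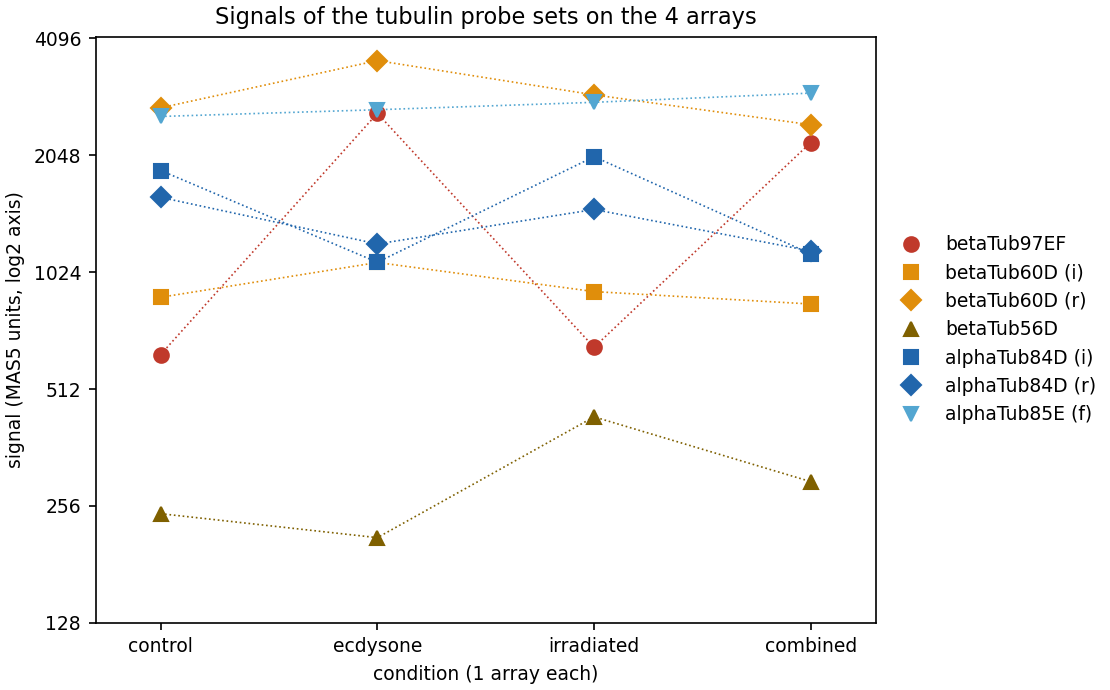
Signal of each tubulin probe set (MAS5 units, log2 axis) on the 4 arrays, 1 point per array, with dotted lines joining the points of a probe set and (i), (r) and (f) marking incomplete, relaxed-rule and family probe sets. Only the shape of each line can be read, since heights of different probe sets are not comparable: betaTub97EF is at 628.4 and 656.0 without hormone and at 2626.1 and 2208.7 with it, and both alphaTub84D probe sets are lower on the hormone arrays.

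betaTub97EF encodes a beta tubulin that in the fly is made in only some tissues. Its signal was 628.4 in control, 2626.1 with ecdysone, 656.0 after irradiation and 2208.7 with both. Both arrays with hormone were high and both without it were low. The share of all probe sets with such a split was not counted. The increase was 4.18-fold without irradiation and 3.37-fold with it. In limma the mean difference was 1.91 (SE 0.33; 95% interval 1.23 to 2.58; adjusted p = 0.000334), a fold of 3.75 with an interval from 2.35 to 5.99. betaTub97EF was chosen as a member with earlier results of these data known. By the size of its increase alone it ranked 247 of the 5981 tested.

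That call rests on letting the variance prior follow intensity. With 1 prior for all intensities the difference was the same, but its SE was 0.58 and its adjusted p in limma 0.668, with an interval in folds from 1.24 to 11.3.

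betaTub60D encodes the beta tubulin typical of differentiating muscle and other mesodermal cells, and it is the isoform known to be induced by the hormone in Kc cells. The incomplete probe set read 882.3 in control, 1084.4 with ecdysone, 912.6 after irradiation and 847.7 with both. The relaxed-rule probe set read 2714.1, 3590.2, 2930.2 and 2454.4 in the same order. On both, the ecdysone array was the highest and the combined array the lowest, so the hormone arrays spanned the others. The hormone difference was 0.30 and 0.41 on these probe sets without irradiation, and -0.11 and -0.25 with it. The means were 0.10 (SE 0.37; limma adjusted p = 0.964) and 0.08 (SE 0.27; limma adjusted p = 0.963). The intervals in folds ran from 0.634 to 1.80 and from 0.716 to 1.55. With 1 prior for all intensities they widened to 0.352 to 3.25 and 0.338 to 3.28.

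betaTub56D encodes the beta tubulin made in most cells. It read 244.5 in control, 212.1 with ecdysone, 434.2 after irradiation and 295.7 with both. Within each pair the hormone array was the lower, but combined was above control. The hormone differences were -0.20 and -0.55, with a mean of -0.38 (SE 0.73; limma adjusted p = 0.926). Its interval, from 0.273 to 2.16 in folds, was on the log2 scale the widest of the members.

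The comparison of isoforms uses differences within arrays, which show unequal change only. With the hormone the betaTub97EF signal gained 4.82-fold on that of betaTub56D in unirradiated and 4.94-fold in irradiated cells. Relative to the mean of both betaTub60D probe sets the gain was 3.28-fold and 3.82-fold. The difference between betaTub60D and betaTub56D was smaller, 0.56 and 0.37 log2 units. betaTub56D had the largest SE of the members (0.73). These contrasts between genes have no test here.

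alphaTub84D encodes one of the widely made alpha tubulins. Its incomplete probe set read 1870.9 in control, 1085.9 with ecdysone, 2030.6 after irradiation and 1141.7 with both. The relaxed-rule probe set read 1595.6, 1210.4, 1485.0 and 1161.0. On both, the hormone array was the lower in each pair, a pattern whose share over all probe sets was not counted. The differences were -0.78 and -0.83 on the first, and -0.40 and -0.35 on the second. In limma the mean was -0.81 (SE 0.31; unadjusted p = 0.0146; adjusted p = 0.300) and -0.38 (SE 0.32; adjusted p = 0.786), and neither passed. The interval of the first, in folds, ran from 0.368 to 0.888, and with 1 prior for all intensities from 0.191 to 1.71, which includes no difference.

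alphaTub85E encodes an alpha tubulin of muscle, sense organs and testis, although its family probe set can match other alpha tubulins. It read 2577.8 in control, 2683.0 with ecdysone, 2803.4 after irradiation and 2961.0 with both, the smallest range of the members, 1.15-fold from lowest to highest. The hormone differences were 0.06 and 0.08, with a mean of 0.07 (SE 0.27; limma adjusted p = 0.964) and an interval in folds from 0.717 to 1.54. Relative to alphaTub84D it gained 0.65 and 0.67 log2 units in the 2 pairs, without a test.

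**Figure D2:**
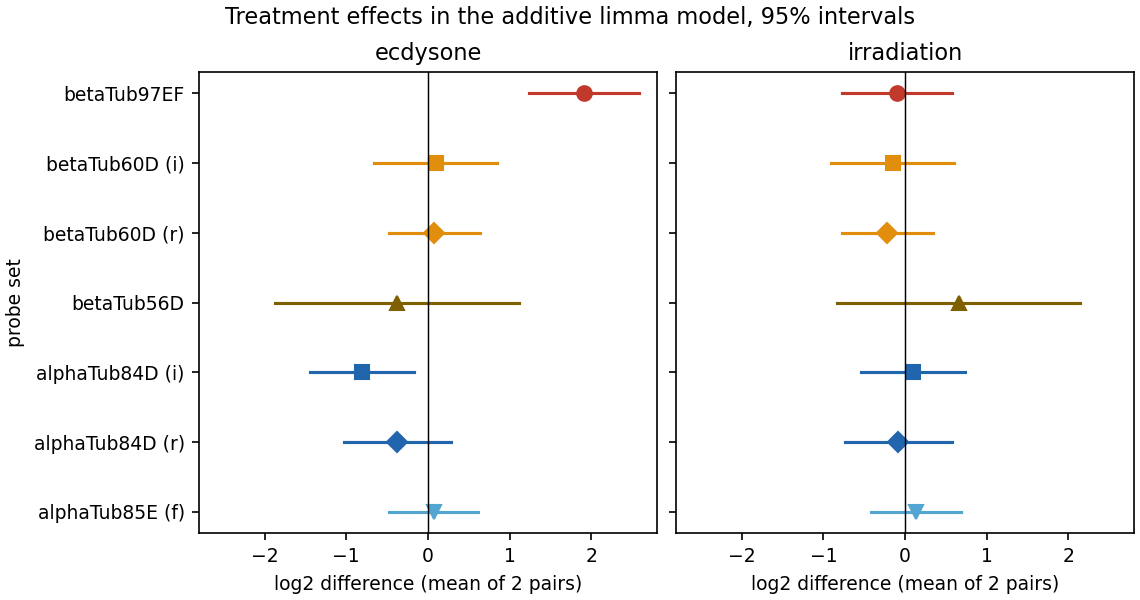
Log2 difference with each treatment for the 7 tubulin probe sets (points, the mean of 2 pairs of arrays) and its 95% interval from the additive limma model (lines). For ecdysone the interval of betaTub97EF runs from 1.23 to 2.58 and that of the incomplete alphaTub84D probe set from -1.44 to -0.17, while the other 5 include 0, as do all 7 for irradiation. With 1 prior for all intensities that of the alphaTub84D probe set ran from -2.39 to 0.77 and included 0.

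Irradiation left no member past the threshold. In limma 0 of 7 probe sets passed and 0 had an unadjusted p under 0.05, against 0.485% of all tested probe sets called, and the size rule also called 0, against 2.84%. The smallest adjusted p was 0.918, for betaTub56D. That probe set was higher in both pairs, by 0.83 without hormone and by 0.48 with it (mean 0.65, SE 0.73). Its interval in folds, 0.559 to 4.43, leaves room for a change of either sign. For betaTub97EF the differences were 0.06 and -0.25, with a mean of -0.09 (SE 0.33). The median absolute difference of the 7 was 0.13, beside 0.56 over all tested, again without matching for intensity.

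For 3 of the probe sets the sign of an irradiation difference depended on the hormone. These were betaTub97EF and both of betaTub60D, where irradiation read 0.05 and 0.11 higher without hormone and 0.36 and 0.55 lower with it. The model has no degree of freedom left to test such an interaction.

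Other actin and tubulin genes were taken from a list of 7, of which 6 had a probe set and 4 could be tested. None rose or fell in limma with either treatment, and the smallest adjusted p was 0.459 for ecdysone and 0.918 for irradiation. gammaTub37C, the gamma tubulin that females supply to the egg, read 395.5 in control, 186.3 with ecdysone, 609.5 after irradiation and 135.6 with both. Its hormone arrays were low in both pairs (-1.08 and -2.17; limma adjusted p = 0.459), so that the size rule called it. That rule called 3.95% of all probe sets for ecdysone. The other probe set of gammaTub37C was below the floor on all 4 arrays. alphaTub67C, the maternal alpha tubulin, had a mean hormone difference of 0.25 (SE 0.68). betaTub85D, the beta tubulin of male germ cells, read 70.3 and 25.2 without hormone, both below the floor, and 169.7 and 167.0 with it. With signals raised to the floor its hormone differences were 0.51 and 0.48. The size rule did not call it, and it was too dim for the test.

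Of the muscle actin genes, Act87E and Act79B have family probe sets, which can match cytoplasmic actin transcripts. Act87E read 4478.6 in control, 4383.0 with ecdysone, 3715.8 after irradiation and 5412.4 with both, with a hormone difference of 0.26 (SE 0.26; limma adjusted p = 0.840). Act79B stayed between 724.6 and 852.1. Act88F, the actin of indirect flight muscle, read 219.9 and 183.0 on the unirradiated arrays and was below the floor on both irradiated arrays. Apart from these genes, the middle control probe set for actin, an array control that is no member, read between 6363.1 (irradiated) and 8021.9 (combined). The actin controls at the ends varied more, from 744.8 (combined) to 1458.9 (ecdysone) at 3′ and from 552.5 (irradiated) to 1213.2 (ecdysone) at 5′.

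CCT is the ring-shaped chaperonin that folds newly made tubulin and actin, and all 8 of its subunit genes could be tested. None passed in limma, and their adjusted p for ecdysone ranged from 0.173 (CCT2) to 0.972 (CCT8). At an unadjusted p under 0.05 in limma there were 3 of 8, beside 584 of all 5981 probe sets tested. With signals raised to the floor, all 8 had a negative mean hormone difference, from -1.06 to -0.10 with a median of -0.64, where 51.4% of all tested probe sets were negative. In single pairs 6 of 8 were lower without irradiation (CCT3 and CCT7 were higher) and 7 of 8 with it (CCT5 was higher). With irradiation 5 of 8 means were negative, with a median of -0.18, where 50.1% of all tested probe sets were negative. In limma 0 of 8 had an unadjusted p under 0.05 for irradiation, beside 411 of all 5981. Whether the hormone and irradiation differences differ was not tested. These genes were singled out of the folding list after their values were seen.

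CCT2 read 1698.8 in control, 660.1 with ecdysone, 1398.3 after irradiation and 824.3 with both, lower with hormone in both pairs. Its second probe set was also lower in both pairs, with differences of -0.57 and -1.60. CCT4 read 2489.1, 1280.0, 2202.5 and 1867.1, again lower with hormone in both pairs. CCT7 had the most uneven pairs, at 255.3 and 368.2 on the unirradiated arrays, 601.4 after irradiation and 65.6 in combined, where it was below the floor, so its values here are bounds.

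**Figure D3:**
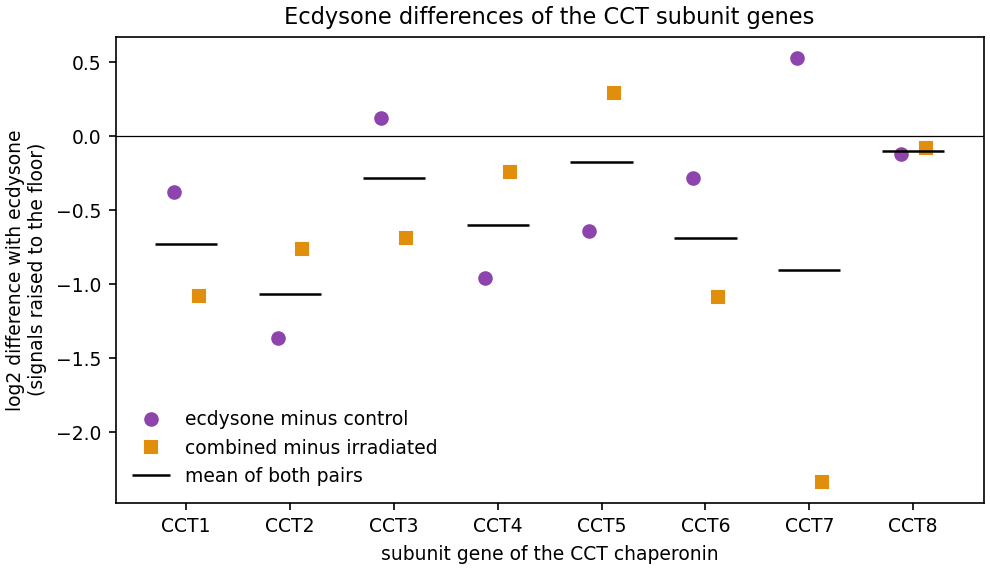
Log2 difference with ecdysone for the 8 CCT subunit genes in unirradiated cells (circles) and irradiated cells (squares), with the mean of both pairs as a bar, from signals raised to the floor, which affects CCT7 in combined only. All 8 bars lie below 0, between -1.06 and -0.10, while single pairs of CCT3, CCT5 and CCT7 lie above it.

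The whole folding list had 15 genes with a probe set, of which 10 could be tested, with 0 passing for either treatment and a median hormone difference of -0.44. Pfdn2, a subunit of the prefoldin complex that hands nascent tubulin and actin to CCT, read 264.0 and 354.1 without hormone and 33.6 and 49.2 with it. It was called lower by the size rule, at least 2.56-fold on the mean of both pairs, but was too dim for the test. For ecdysone that rule called 3.95% of all probe sets.

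Among actin assembly and turnover genes 21 of 33 had a probe set and 17 could be tested, with a median hormone difference of -0.35 and 0 passing for either treatment (smallest adjusted p 0.538 for ecdysone and 0.844 for irradiation). The size rule called tmod higher with hormone, where it called 3.95% of all probe sets in either direction. This gene encodes tropomodulin, which caps the slow-growing end of actin filaments, and it read 212.9 in control, 602.3 with ecdysone, 125.3 after irradiation and 283.4 with both. Its other probe sets did not share the difference, with means of 0.00 (below the floor on all arrays) and 0.06. Abi, a subunit of the WAVE complex, was lower with irradiation by size only, at 280.2 and 404.4 on the unirradiated arrays against 92.0 and 163.8. For irradiation the size rule called 2.84% of all probe sets.

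Of 26 genes for microtubule motors and associated proteins 21 had a probe set and 13 could be tested. Their median hormone difference was -0.46, and 8 of 13 were negative, beside 51.3% of all tested probe sets. In limma 0 passed for either treatment (smallest adjusted p 0.401 for ecdysone and 0.656 for irradiation). The size rule called Kat60 and shot lower with hormone, where it called 3.95% of all probe sets in either direction. Kat60, the catalytic subunit of the microtubule-severing enzyme katanin, read 514.0 in control, 131.4 with ecdysone, 395.5 after irradiation and 88.9 with both (limma adjusted p = 0.401). shot, the spectraplakin that links actin and microtubules, read 285.3, 69.6, 305.4 and 20.4. It was at least 2.47-fold lower with hormone on the mean of both pairs, and was too dim for the test.

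**Figure D4:**
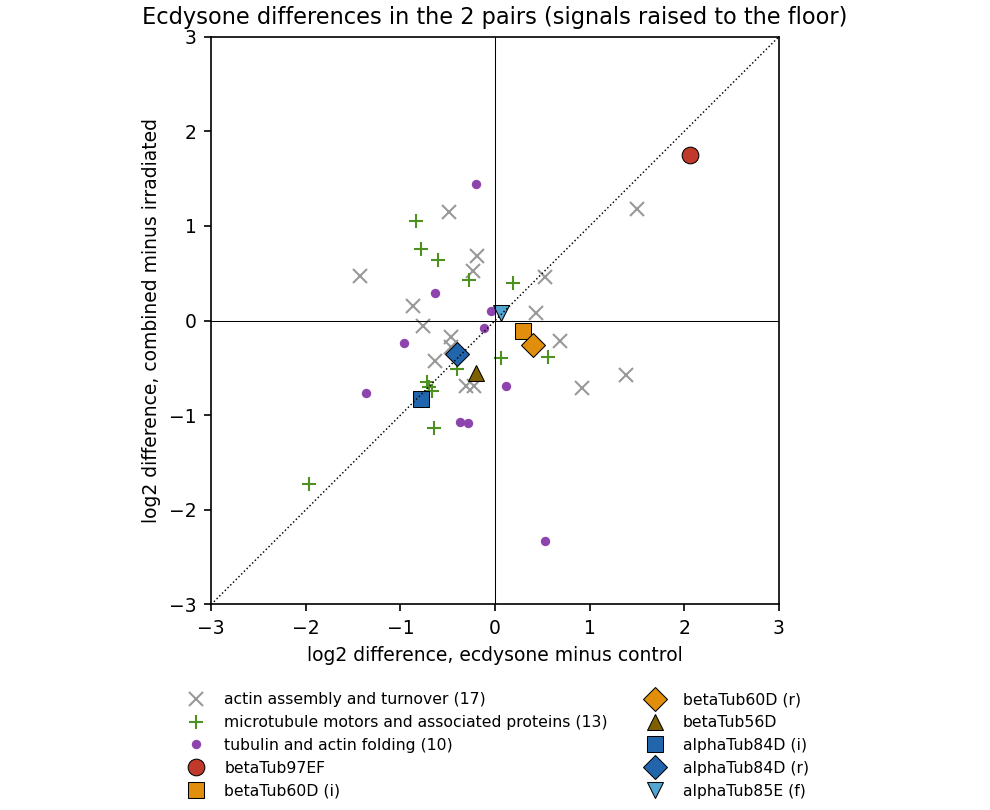
Log2 difference with ecdysone in unirradiated cells (x axis) against that in irradiated cells (y axis) for the 7 tubulin probe sets and for the tested genes of 3 cytoskeleton lists, 17, 13 and 10 genes, from signals raised to the floor, with a dotted line where both pairs are equal. betaTub97EF lies near that line at 2.06 and 1.75, the alphaTub84D probe sets lie near it below 0, and many genes of the other lists lie far from it.

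The genes whose 4 log2 signals, each centred on its own mean, lay nearest to those of betaTub97EF were Atac2, TwdlK, CG8768, Syp and CG15126, by Euclidean distance among 5286 candidate probe sets. Atac2, TwdlK and CG8768 were below the floor on both arrays without hormone, so they have no exact distance or order, while Syp lay at 0.274 and CG15126 at 0.287 log2 units. Of these 5, Syp rose with hormone, at 358.0 and 407.8 on the arrays without it against 1254.3 and 1209.1 (limma adjusted p = 0.0232). The other 4 did not pass, with limma adjusted p from 0.283 to 0.738. A likeness over 4 arrays is a description of these arrays.

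Markers of other cells were read beside these values. The 6 muscle markers with a probe set that are not actin genes summed to 314.7 signal units in control, 774.3 with ecdysone, 1156.1 after irradiation and 1071.5 with both, and none of them was above the floor on every array. The same held for 5 neuron markers, with sums from 350.2 to 963.1, and 4 testis markers, with sums from 139.1 to 505.9. No muscle or neuron marker that could be tested passed limma with either treatment, and no testis marker was bright enough for the test. The size rule called the titin-like gene sls higher with irradiation on 1 of its 4 probe sets, against 2.84% of all probe sets. Kc cells resemble blood cells, and of 6 hemocyte markers with a probe set, Pxn (peroxidasin) and Col4a1 (a collagen IV chain) rose with hormone in limma and Hml (hemolectin) fell, while srp did not pass (adjusted p = 0.970), crq was below the floor on all arrays and NimC1 on all but combined. The summed signal of these 6 was 1930.7 and 2146.1 without hormone and 5415.8 and 8066.1 with it. Without Pxn and Col4a1, left out because they rose, it was 1282.1 and 1322.3 against 522.1 and 616.3. Most of that remainder was Hml, at 922.6 and 1109.7 without hormone against 284.2 and 240.3. Listed genes thus moved in both directions. All sums here add signals of different probe sets, some below the floor, and are a description only. The part of these markers in the tubulin result was not tested. In RNA of a whole culture, more RNA per cell and more cells making a transcript cannot be told apart.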

How the data were processed

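The deposited values are signal intensities from DrosGenome1 arrays that the authors computed with MAS5, per the submitters' processing notes. Settings are not given in the sources used here. Each array had a trimmed mean near 200.02 over its 14010 probe sets. Without 44 controls, 13966 were analysed, of which 12443 had 1 gene symbol, 327 several and 1196 none. Symbols were updated through gene identifiers with the RefSeq table of Release 6 plus ISO1 MT for 12394, used for names only.

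Arrays were scaled to a common trimmed mean, leaving out 2% at each end, which moved no array by over 0.0667%. The floor was the median of all scaled signals. limma 3.58.1 in R 4.3.3 fitted ecdysone and irradiation as additive terms with an intensity-dependent prior, and was tested on simulated data. The noise of those data was drawn from the same prior, so that test could not check the prior. Tables were made with Python 3.11.15, numpy 2.4.6 and pandas 2.3.3. Listed genes other than members are represented by their brightest probe set. They were named when called by limma or by the size rule, and for likeness the 5 nearest genes were named. Other actin and tubulin genes, CCT subunits and hemocyte markers were also named without a call, the CCT subunits after their values were seen. Alternatives were other scalings, filters, floors, fold thresholds, single pairs and priors. Members and lists were chosen with earlier results of these data known, betaTub97EF among them. The number of arrays limits the precision.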

Additional observations from a re-analysis of the deposited data

Results flagged for a closer look

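In 2 tubulin genes a treatment difference had opposite signs in its 2 pairs of arrays. For betaTub60D the ecdysone difference in irradiated cells minus that in unirradiated cells was -0.41 on the incomplete and -0.66 on the relaxed-rule probe set. The irradiation difference with hormone minus that without it is the same quantity by arithmetic, so it adds no second observation. For betaTub97EF the irradiation difference with hormone minus that without it was -0.31. None of these differences was tested, since each condition has 1 array.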

How the results depend on the processing

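Over 6 alternatives betaTub97EF kept an ecdysone difference between 1.86 and 1.92. The priors and the floor cannot change that difference, and the deposited values and median scaling shift it only by a constant. Quantile normalization gave 1.86. betaTub97EF passed limma in all but the fit with 1 prior for all intensities, with adjusted p from 4.54e-05 to 0.00545. That prior left 0 of 7 member probe sets and 0 of all probe sets called for either treatment, with 418 for ecdysone and 303 for irradiation at an unadjusted p under 0.05. The cause was not tested. Over all probe sets the 119 ecdysone calls became 75 with the filter at the 60th percentile, 56 without a filter and 77 with signals raised to the floor, an alternative chosen after seeing the data. The 29 irradiation calls became 47 with median scaling, 6 with quantile normalization, 6 with the filter at the 60th percentile, 4 without a filter and 6 with signals raised to the floor. These filters change the number of probe sets tested, and for the other settings the cause was not tested. A 1.5-fold size rule called 2 members for ecdysone, adding the incomplete alphaTub84D probe set. The gain of betaTub97EF over betaTub56D was 2.24 log2 units with quantile normalization against 2.29. Of 84 values of members under alternatives 78 kept their sign and their side of the threshold and 5, none of them called, changed sign. The priors and the floor cannot change a difference of these members, and the deposited values hardly can. Many of these signs were therefore fixed in advance, and the count does not measure robustness. With quantile normalization the ecdysone difference was -0.17 for the relaxed-rule betaTub60D probe set and -0.19 for alphaTub85E, and the irradiation difference -0.10 for the incomplete alphaTub84D probe set and -0.14 for alphaTub85E. With median scaling that of the relaxed-rule alphaTub84D probe set was 0.0024. Under all 4 scalings the 8 CCT subunits kept negative ecdysone means, and with irradiation 5 were negative under 3 scalings and 8 with quantile normalization. The deposited values and median scaling each shifted all ecdysone differences by a small constant. Only quantile normalization could therefore have changed the ecdysone signs of the CCT subunits. No paired analysis was possible because each condition has 1 array and the labels carry no replicate numbers.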
